A study of Homo sapiens with 10 samples.

Results

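Small RNA host genes were read across the RNA-seq of MCF10A cells, a non-transformed human breast epithelial line. The members are every row whose gene symbol begins with SNHG, begins with MIR and ends in HG, or is GAS5. In all 62 symbols met this rule: 59 of the 26256 rows of the table that holds the MCF10A and G12V libraries and 38 of the 55736 rows of the table that holds the DMSO and Nutlin-3a libraries, with 35 symbols in both. The members with SNHG symbols and GAS5 are called snoRNA hosts below, and those with MIR symbols miRNA hosts. G12V cells are MCF10A cells that received the HRas oncogene G12V by lentivirus, together with a GFP vector, and were selected with hygromycin, so that both G12V libraries come from selected cells. The 2 parental MCF10A and 2 G12V libraries were from untreated cells. The Nutlin-3a experiment used parental MCF10A cells given 10 µM Nutlin-3a or the vehicle DMSO for 4 h, with 3 libraries each, and Nutlin-3a blocks the binding of MDM2 to p53. All cultures had the same medium with EGF, insulin, hydrocortisone, cholera toxin and horse serum.

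Small nucleolar RNAs (snoRNAs) guide the methylation and pseudouridylation of ribosomal RNA, and in human cells most of them are cut out of introns of longer genes. The SNHG genes and GAS5 are such hosts, whose spliced exons form a noncoding RNA, and many of these spliced RNAs are degraded by nonsense-mediated decay. Several of them, GAS5 among them, begin with a run of pyrimidines, the 5′ terminal oligopyrimidine tract that also opens the mRNAs of ribosomal proteins. MIR host genes are named as the long primary transcripts from which DROSHA and DICER1 cut hairpins and then mature miRNAs. The symbol rule also takes in MIRLET7DHG, MIR7515HG and MIR133BHG, which lie on the strand opposite the miRNA of their name. The row of MIR4435-2HG does not contain MIR4435-2. A mature miRNA finds its targets through its seed, bases 2 to 8. Poly(A)-selected libraries count the spliced host RNA and hold few of the small RNAs themselves, so the values below are of the host transcripts.

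The mature miRNAs carried by the miRNA hosts on which the results turn are printed here from RefSeq (GRCh38.p14), with the seed in capitals. All 58 miRNA rows inside members of the first table that were looked up matched a mature sequence by symbol. MIR205HG, the member that differed most between the cell types, holds MIR205 at chr1:209605478-209605587 (hg19, + strand).
hsa-miR-205-5p: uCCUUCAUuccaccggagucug
hsa-miR-205-3p: gAUUUCAGuggagugaaguuc

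MIR17HG, the primary transcript of the miR-17-92 cluster and the only member with an unadjusted p under 0.05 after Nutlin-3a, holds 6 miRNA rows that fall into 4 seed groups by the major strands.
hsa-miR-17-5p: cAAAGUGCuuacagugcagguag
hsa-miR-20a-5p: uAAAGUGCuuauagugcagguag
hsa-miR-18a-5p: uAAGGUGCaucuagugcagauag
hsa-miR-19a-3p: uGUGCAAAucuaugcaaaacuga
hsa-miR-19b-3p: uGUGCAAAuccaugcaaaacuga
hsa-miR-92a-3p: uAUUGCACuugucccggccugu

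One seed, that of the let-7 family, was shared by 3 mature miRNAs from 3 tested hosts, MIR100HG, MIRLET7BHG and MIR4458HG, and let-7a-5p comes from a copy in MIR100HG and another in MIRLET7BHG.
hsa-let-7a-5p: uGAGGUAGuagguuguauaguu
hsa-let-7b-5p: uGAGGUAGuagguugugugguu
hsa-miR-4458: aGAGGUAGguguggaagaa

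The libraries of MCF10A and G12V cells held 21538593 to 23683975 counted reads and those of the Nutlin-3a experiment 15453226 to 17378734. Levels are given as CPM, counts per 1000000 reads of the TMM-scaled library size, not divided by gene length, so they compare libraries for 1 gene and not genes with each other. HRAS was at 72.6 and 65.9 CPM in MCF10A and at 631 and 515 CPM in G12V cells (log2 fold change 3.05 ± 0.23), which is the direction of the labels. After Nutlin-3a the p53 targets CDKN1A and MDM2 were higher, CDKN1A with a log2 fold change of 2.16 ± 0.13 (SE) and MDM2 with 2.54 ± 0.18. All 7 breast epithelial markers checked were lower in both G12V libraries than in either MCF10A library. KRT14, KRT17, TP63 and CDH1 were at 119 CPM or more in both MCF10A libraries and at 1.58 CPM or less in both G12V libraries. KRT5 fell from 3714 and 4675 CPM to 936 and 1220 CPM, and KRT18 had a log2 fold change of -0.71 without a DE call. Both were still at 199.95 CPM or more in all 4 libraries. EPCAM was at 47.1 CPM or more in MCF10A and at 7.63 CPM or less in G12V cells. The mesenchymal markers CDH2 and VIM were higher in both G12V libraries than in either MCF10A library, COL1A1 was lower and PDGFRB overlapped. The blood marker PTPRC had at most 1 read in any of these libraries, and the endothelial CDH5 at most 16, while PECAM1 overlapped between the cell types. None of these markers that were tested in the Nutlin-3a experiment was DE there. The part of this difference in epithelial markers in the values of the host genes was not tested, and bulk libraries cannot tell fewer cells of a kind from less RNA per cell.

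The comparison of G12V with MCF10A cells asks which host genes the oncogene-carrying line expresses differently. Of the 59 members there, 35 had enough reads to be tested, 20 snoRNA hosts and 15 miRNA hosts. Differential expression (DE) means a log2 fold change beyond 0.5 in either direction at an adjusted p under 0.05, from the quasi-likelihood test of edgeR adjusted by the Benjamini-Hochberg method over all 14376 tested genes. By this rule 4 members were DE, or 11.4%, against 11.0% of all tested genes. SNHG16 and SNHG3 rose (5.71% of the members, against 5.01% of all tested genes), and MIR205HG and SNHG18 fell (5.71% against 5.95%). The members' median log2 fold change was 0.12, beside -0.0011 over all tested genes, and their median absolute log2 fold change was 0.66, beside 0.36. Groups did not overlap in 19 of the 35 members (54.3%), against 54.8% of all tested genes. Of these, 13 were higher in G12V cells (37.1%, against 27.5%) and 6 lower (17.1%, against 27.4%). The share of members called DE, and the share whose groups stood apart, were thus near those of all genes. Replicates of a cell type also differed in the same way in both: in 10 of the 20 snoRNA hosts replicate 1 lay above replicate 2 in both cell types, and in 8 replicate 2 lay above replicate 1 in both, which held for 32.4% and 36.9% of all tested genes.

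**Figure D1:**
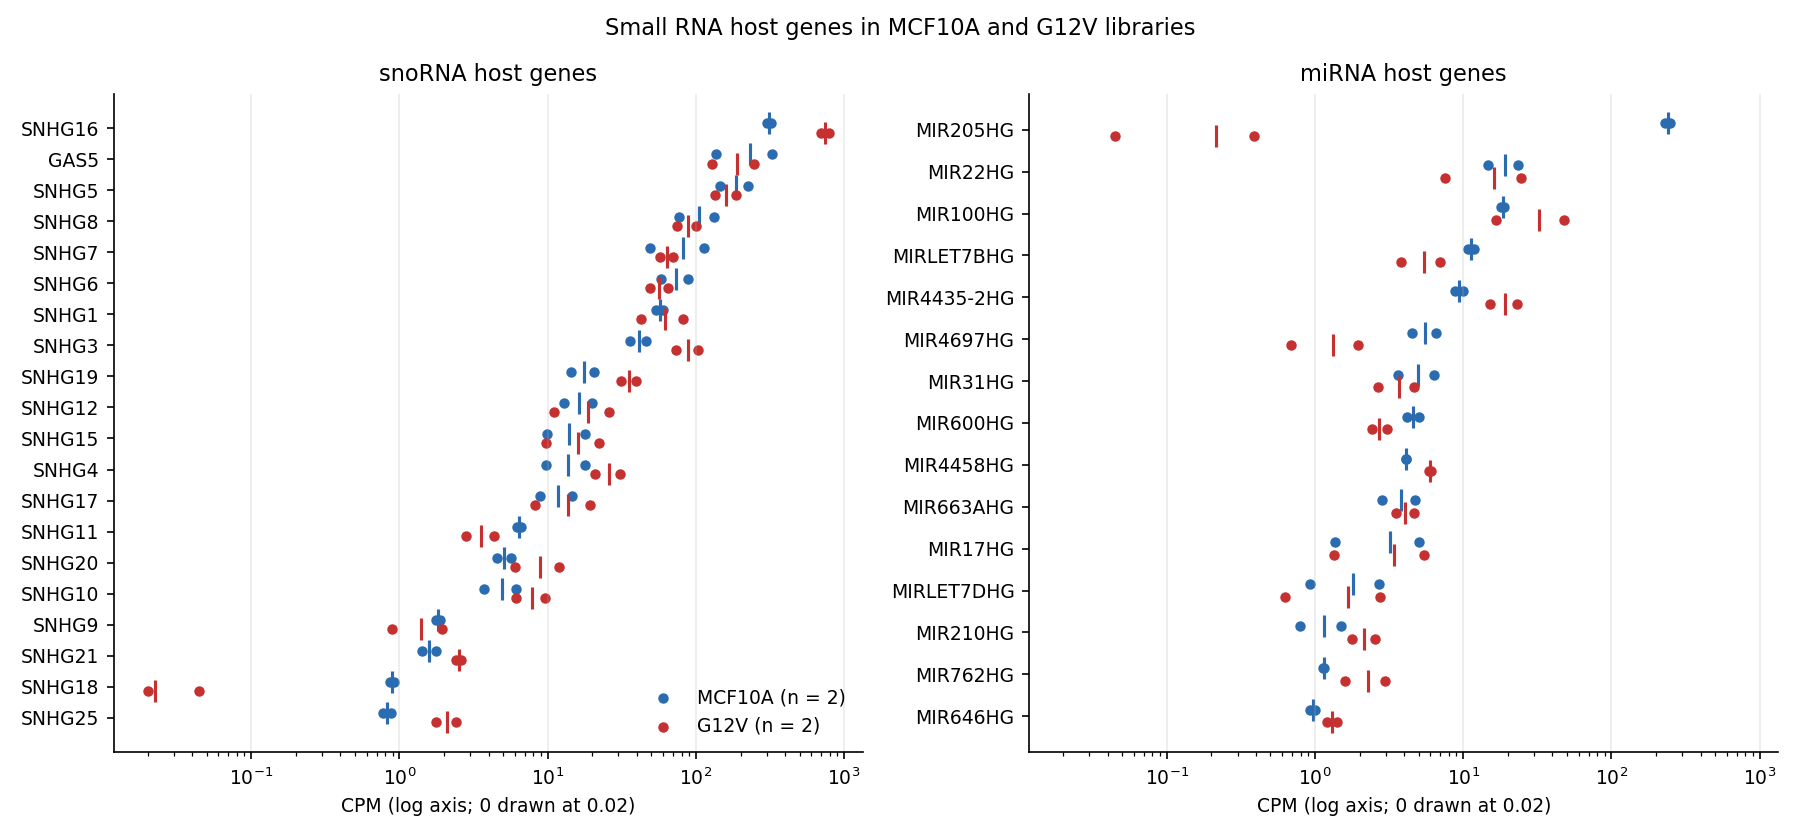
CPM of the 35 tested host genes in each library (log axis), with MCF10A in blue and G12V in red, points for the libraries, vertical ticks for the group means (n = 2 each) and a level of 0 drawn near the left end. MIR205HG fell from 231 and 250 CPM to 0.385 and 0.0446 CPM, SNHG16 rose, and SNHG18 fell from 19 and 21 reads to 0 and 1.

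SNHG16, host of SNORD1A, SNORD1B and SNORD1C on chr17:74553846-74561430 (hg19, + strand), had more reads than any other tested member. Its levels were 300 and 319 CPM in MCF10A and 694 and 789 CPM in G12V cells. Both G12V libraries thus lay above both MCF10A libraries, and the libraries of a cell type differed far less than the cell types. The log2 fold change was 1.26 ± 0.22 (SE), with an adjusted p of 0.0186 by edgeR's quasi-likelihood test. The adjusted p was 0.143, 0.0567 and 0.0523 without MCF10A replicate 1, MCF10A replicate 2 or G12V replicate 2, while the log2 fold change stayed between 1.17 and 1.35 in all 4 fits without a library.

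SNHG3, the host of SNORA73B at chr1:28832455-28837404, followed the same order with a smaller distance between the groups. It was read at 46.2 and 36.1 CPM in MCF10A and at 73.6 and 103 CPM in G12V cells, without overlap. The log2 fold change was 1.10 ± 0.24 and the adjusted p 0.0403 by edgeR's quasi-likelihood test, and the call was lost without MCF10A replicate 1, MCF10A replicate 2 or G12V replicate 2 (adjusted p 0.161, 0.126 and 0.0867) and without the filter on low counts (0.0519). SNHG3 overlaps RCC1, a protein-coding gene on the same strand, and the way in which reads of both were assigned is not given in the sources used here. RCC1 itself had 2533 to 3788 reads and a log2 fold change of 0.21 ± 0.21 (adjusted p 0.623).

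SNHG18, which holds SNORD123 at chr5:9546312-9550409, was the tested member with the fewest reads. It had 19 and 21 reads in the MCF10A libraries and 0 and 1 read in the G12V libraries, so that the groups lay far apart at low counts. Pooled over the libraries and scaled by their sizes, 40 reads against 1 make it 41.0-fold lower in G12V cells, with a 95% exact binomial interval of 6.95 to 1660 that covers counting error only. The fitted log2 fold change was -5.04 ± 0.82, and -4.17 without G12V replicate 1 and -7.35 without G12V replicate 2. The adjusted p was 0.0159 by edgeR's quasi-likelihood test, and 0.141 without MCF10A replicate 1. A stricter filter of more than 1 CPM in 2 libraries left SNHG18 out of the test.

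MIR205HG at chr1:209602168-209605892, the host of miR-205, which restrains the epithelial to mesenchymal transition by targeting ZEB1 and ZEB2, fell almost to the floor of detection. It had 5076 and 5665 reads in MCF10A but 9 and 1 in G12V, or 231 and 250 CPM against 0.385 and 0.0446 CPM. The epithelial genes KRT14, KRT17, TP63 and CDH1 moved with it, as given above, and their part in this result was not tested. The fitted log2 fold change was -10.07 ± 0.54 with an adjusted p of 0.000788 by edgeR's quasi-likelihood test, and pooled reads gave a 1100-fold lower level with a 95% interval of 598 to 2300 for counting error alone. One library moved this value further, since the fitted log2 fold change was -9.27 without G12V replicate 2 and -12.23 without G12V replicate 1. The row of the miRNA gene MIR205, which lies at the 3′ end of the host, moved with it: 68 and 44 reads in MCF10A and none in either G12V library (adjusted p 0.00828). Without MCF10A replicate 1 the adjusted p of MIR205HG was 0.0577, in a fit that called 0 genes of all those it tested.

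Among the remaining snoRNA hosts, 6 more had no overlap between the groups and were higher in G12V cells, and 1 was lower, but these 7 were not DE. SNHG19, host of SNORD60, had 14.5 and 20.5 CPM in MCF10A and 31.2 and 39.4 CPM in G12V cells, giving a log2 fold change of 1.02 ± 0.27 with an adjusted p of 0.0666 by edgeR's quasi-likelihood test. SNHG25, host of SNORD104, had 17 and 20 reads in MCF10A and 41 and 54 in G12V cells, which gave a log2 fold change of 1.32 ± 0.40 and an adjusted p of 0.0964. Both were DE by edgeR's exact test (adjusted p 0.0135 for SNHG19 and 0.0346 for SNHG25), and SNHG19 also by DESeq2 (0.0154).

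SNHG4, the host of SNORA74A, stood at 17.8 and 9.73 CPM in MCF10A and at 30.9 and 20.9 CPM in G12V cells, which gave a log2 fold change of 0.91 ± 0.37. Its locus overlaps MATR3 on the same strand, whose 9542 to 10273 reads gave a log2 fold change of 0.03. SNHG20, host of SCARNA16, stood at 5.64 and 4.58 CPM in MCF10A and at 11.8 and 6.02 CPM in G12V cells, and its log2 fold change of 0.81 ± 0.41 is uncertain, since it overlaps SEC14L1 on the same strand and SEC14L1 was DE with a log2 fold change of 2.47 ± 0.36. The low-read SNHG21 (0.66 ± 0.36) and SNHG10 (0.67 ± 0.40), host of SCARNA13, differed in the same direction. SNHG11, host of SNORA60 and SNORA71E, went the other way, with 6.59 and 6.21 CPM in MCF10A and 4.32 and 2.81 CPM in G12V cells (log2 fold change -0.84 ± 0.35). Adjusted p-values of these 5 genes lay between 0.190 and 0.361 by edgeR's quasi-likelihood test.

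GAS5, SNHG5 and 8 further hosts overlapped between the cell types. GAS5, a host of 10 annotated SNORD rows that accumulates when growth stops, varied more within a cell type than between them, with 137 and 327 CPM in MCF10A and 128 and 248 CPM in G12V cells. The value for GAS5 was -0.30 ± 0.48 on the log2 scale. SNHG5, host of SNORD50A and SNORD50B, showed the same order of libraries, 145 and 225 CPM in MCF10A and 135 and 185 CPM in G12V cells (log2 fold change -0.21 ± 0.28). SNHG6 (-0.38 ± 0.27), SNHG8 (-0.26 ± 0.30) and SNHG7 (-0.36 ± 0.39) also gave negative values, none of them DE.

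SNHG1, which carries 8 SNORD rows, had 60.3 and 53.6 CPM in MCF10A and 81.8 and 42.5 CPM in G12V cells, so that the G12V libraries lay on either side of both MCF10A libraries (log2 fold change 0.12 ± 0.32). SNHG12 (0.18 ± 0.45), SNHG15 (0.21 ± 0.47) and SNHG17 (0.22 ± 0.47) were in both cell types higher in replicate 1 than in replicate 2, and SNHG9 (-0.36 ± 0.47) overlapped as well. None of these 10 hosts had an adjusted p under 0.463 by edgeR's quasi-likelihood test. Their 95% intervals were wide with 2 libraries a group, that of GAS5 running from -1.48 to 0.88 on the log2 scale and that of SNHG6 from -1.03 to 0.28, so that differences of this size were not detectable.

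The miRNA hosts other than MIR205HG held no DE gene. MIR4697HG came closest among those lower in G12V cells, with 4.55 and 6.56 CPM in MCF10A and 0.684 and 1.96 CPM in G12V cells. Both G12V libraries lay below both MCF10A libraries, but they differed from each other almost 3-fold, and the log2 fold change of -2.07 ± 0.55 had an adjusted p of 0.0701 by edgeR's quasi-likelihood test (0.00549 by its exact test and 0.00687 by DESeq2). MIR4435-2HG, a long noncoding RNA also known as LINC00978, had 8.82 and 10.0 CPM in MCF10A and 15.1 and 23.0 CPM in G12V cells, which gave a log2 fold change of 1.01 ± 0.30 and an adjusted p of 0.0877 (0.0307 and 0.0311 by the other tools).

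The 3 hosts that share the let-7 seed printed above had values of either sign, none of them DE. MIRLET7BHG, with let-7b and a copy of let-7a, had 10.8 and 11.9 CPM in MCF10A and 7.01 and 3.79 CPM in G12V cells (log2 fold change -1.07 ± 0.37, adjusted p 0.134 by edgeR's quasi-likelihood test). MIR100HG, which also holds miR-100 and miR-125b, had 18.1 and 18.9 CPM in MCF10A but 16.6 and 47.9 CPM in the G12V libraries, so that its log2 fold change of 0.80 ± 0.48 rests on G12V replicate 2 and was -0.16 without it. MIR4458HG had 4.14 and 4.10 CPM in MCF10A and 6.07 and 5.89 CPM in G12V cells (0.54 ± 0.30, adjusted p 0.338). MIRLET7DHG, whose row lies on the strand opposite MIRLET7D, had a log2 fold change of -0.10 ± 0.80, and its replicates differed by more than its cell types.

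MIR210HG, host of the hypoxia-induced miR-210, had 33 and 18 reads in MCF10A and 59 and 40 in G12V cells (log2 fold change 0.91 ± 0.46). MIR762HG was at 1.14 and 1.15 CPM in MCF10A and at 1.58 and 2.99 CPM in G12V cells (1.00 ± 0.45), and BCL7C, on the opposite strand of the same place, had a log2 fold change of -0.46 ± 0.26. MIR600HG was lower in both G12V libraries (-0.76 ± 0.34). MIR646HG (0.44 ± 0.39) and MIR663AHG (0.10 ± 0.40) had fewer than 110 reads in every library. MIR17HG, with 5.00 and 1.37 CPM in MCF10A and 5.43 and 1.34 CPM in G12V cells, MIR22HG (-0.25 ± 0.56) and MIR31HG (-0.45 ± 0.45) overlapped between the cell types. None of these 8 had an adjusted p under 0.234 by edgeR's quasi-likelihood test.

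**Figure D2:**
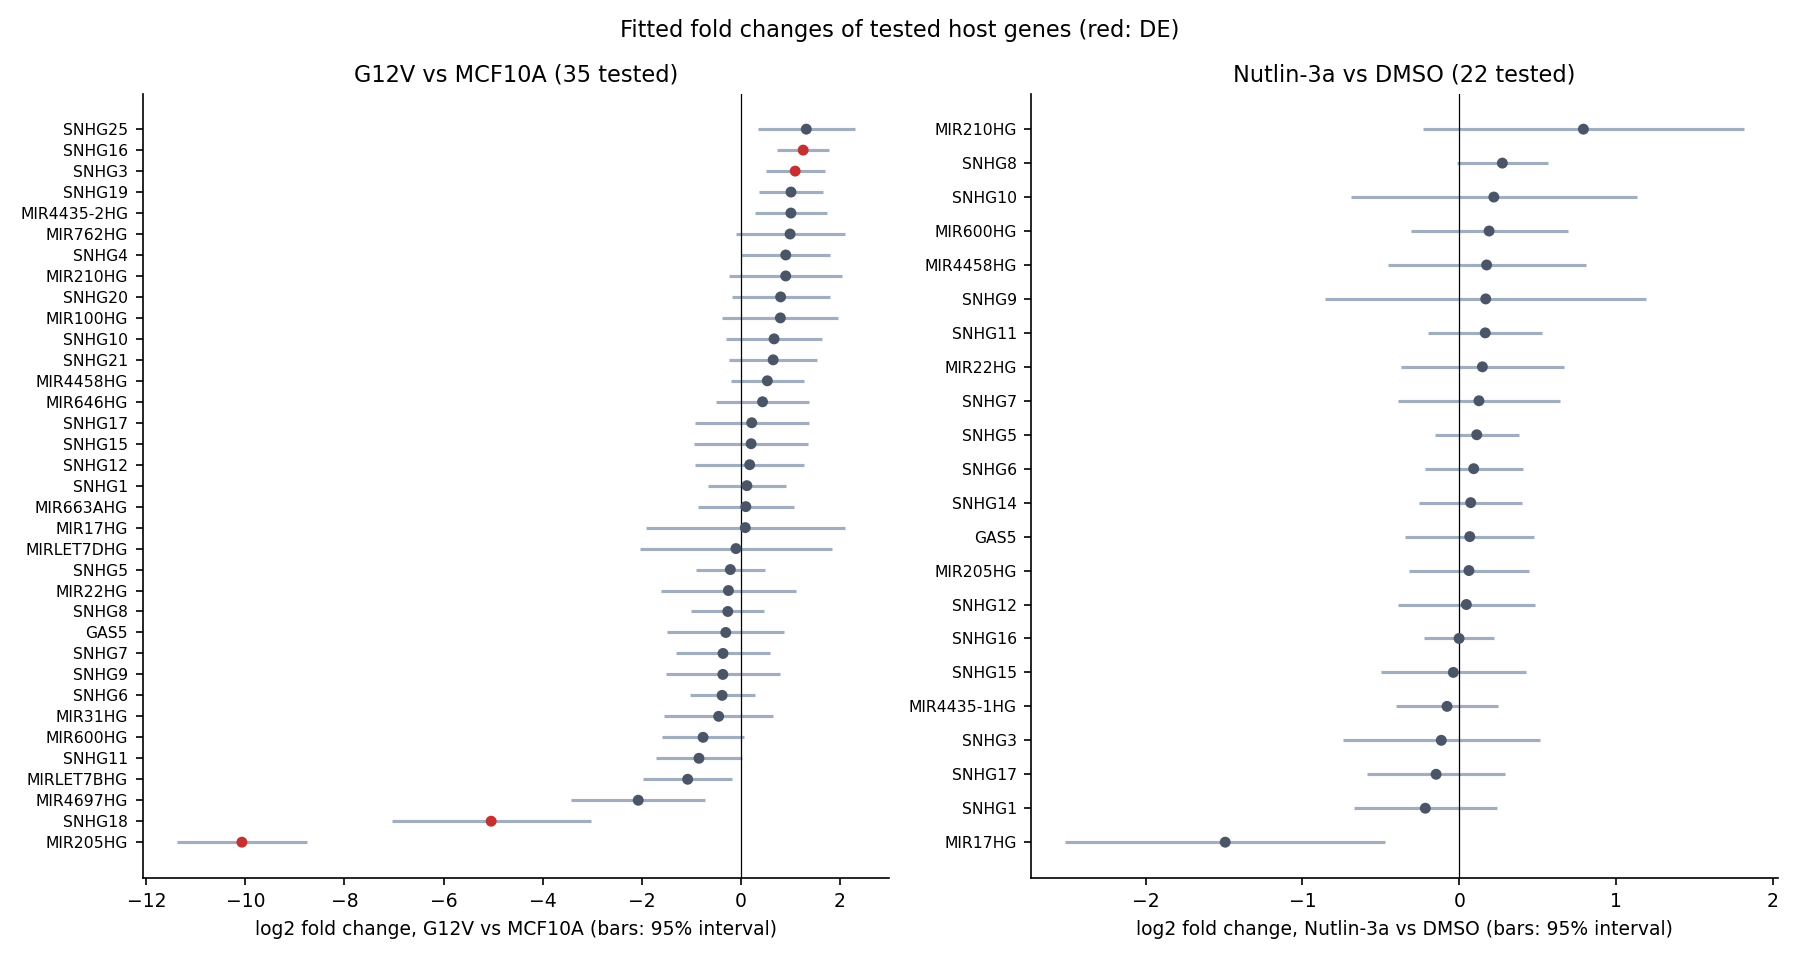
Fitted log2 fold change of each tested host gene with its 95% interval (grey bars), G12V against MCF10A on the left (35 genes) and Nutlin-3a against DMSO on the right (22 genes), DE genes in red. The 4 red points are SNHG16, SNHG3, SNHG18 and MIR205HG on the left, and the horizontal scales of the panels differ.

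Where the host genes start was read from the hg19 genome at the starts that the first table gives, as windows of 30 bases, 10 before and 20 from the annotated start on. A C at the start followed by at least 4 pyrimidines was found in 5 of the 20 tested snoRNA hosts, SNHG5, SNHG6, SNHG18, SNHG19 and SNHG25, in 1 of the 15 tested miRNA hosts (6.67%), MIR762HG, and in 3.06% of all tested genes. GAS5, SNHG16 and SNHG3 did not meet this rule, and their longest run began within 3 bases of the annotated start. A run of at least 5 pyrimidines anywhere in the window was found in 70.0% of the tested snoRNA hosts. The share was 53.3% of the tested miRNA hosts and 44.6% of all tested genes. The windows of the DE snoRNA hosts and of 3 others are printed with the longest run of C and T in capitals.
SNHG16 (chr17:74553836-74553865, + strand): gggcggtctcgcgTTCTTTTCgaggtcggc
SNHG3 (chr1:28832445-28832474, + strand): gtgagtttctgaTTCTCTaactgcgcatgc
SNHG18 (chr5:9546302-9546331, + strand): gccgcgccgCCTCCTCCTCCTCCTCCTCCC
SNHG19 (chr16:2205340-2205369, - strand): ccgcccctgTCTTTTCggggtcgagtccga
SNHG5 (chr6:86388432-86388461, - strand): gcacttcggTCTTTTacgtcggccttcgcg
GAS5 (chr1:173837106-173837135, - strand): catactgTCTTTTCgaggtaggagtcgact

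Of the 5 snoRNA hosts with such a start, SNHG19 and SNHG25 were higher in both G12V libraries without a DE call, SNHG18 fell, and SNHG5 and SNHG6 overlapped between the cell types. In the RefSeq promoters (GRCh38.p14), which cover 29 of the 35 tested members, the E-box CACGTG, a palindrome that MYC proteins can bind, was present for 1 member, SNHG7 (2.94% of the members' promoters and 7.26% of all).

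The first table also has rows for the snoRNAs themselves, 62 of which lie inside 21 of the hosts on their strand. These rows were few in reads, and their levels differed more between the replicate numbers than between the cell types. Summed over the 62 rows they reached 41.3 CPM in MCF10A replicate 1, 13.8 in MCF10A replicate 2, 62.2 in G12V replicate 1 and 21.9 in G12V replicate 2, while the 21 hosts together had 979, 1377, 1466 and 1697 CPM in the same order, of which SNHG16 alone made 300, 319, 694 and 789 CPM. Replicate 1 was 2.99 times replicate 2 in MCF10A and 2.83 times in G12V cells. In CPM, replicate 1 exceeded replicate 2 in both cell types in 16 of the 17 hosts with any such reads. This held for 32.4% of all tested genes, which had passed a filter on low counts that was not applied to these sums. Several of the 16 rest on a few reads. In MCF10A the rows inside SNHG11 had 5 reads in each replicate and the row inside SNHG4 had 1, so that only the library scaling set their order. All 393 snoRNA rows, inside these hosts or not, summed to 117 and 48.5 CPM in MCF10A replicates 1 and 2. In G12V replicates 1 and 2 they summed to 170 and 70.0 CPM, so this order was not particular to the rows inside the hosts.

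**Figure D3:**
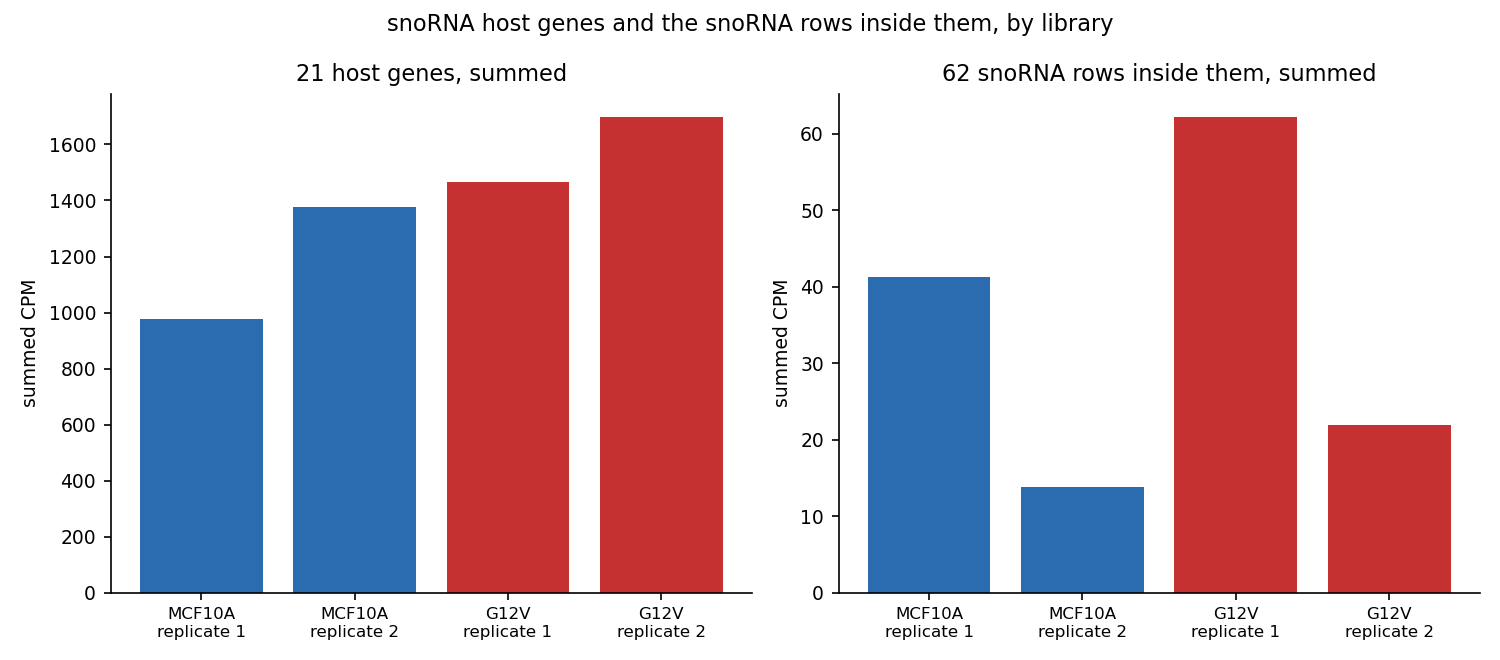
Summed CPM per library of the 21 host genes that contain snoRNA rows (left) and of the 62 snoRNA rows inside them (right), MCF10A in blue and G12V in red, 1 bar a library, axes from 0. The host genes are highest in the 2 G12V libraries, and the snoRNA rows are highest in the 2 libraries numbered 1.

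Of these 62 rows 26 were tested and 0 were DE by edgeR's quasi-likelihood test, by its exact test or by DESeq2, with 0 at an unadjusted p under 0.05. Over all tested genes 11.0% were DE and 25.6% had an unadjusted p under 0.05 by the first of these tests. Inside GAS5, SNORD80 had 69 and 23 reads in MCF10A and 115 and 88 in G12V cells, and SNORD47 had 88 and 47 reads in MCF10A and 121 and 66 in G12V cells. Their log2 fold changes were 1.09 ± 0.56 for SNORD80 and 0.42 ± 0.48 for SNORD47, while that of the host was negative. The only row tested inside SNHG16 was SNORD1C, with 11 and 4 reads in MCF10A and 22 and 3 in G12V cells (0.68 ± 0.95, adjusted p 0.732), so the higher level of SNHG16 could not be followed to its snoRNAs at this depth. SNORA73B inside SNHG3 had 19 and 7 against 43 and 13 reads (1.05 ± 0.74). SNORD60 inside SNHG19 had 12 and 7 against 29 and 10 reads (0.98 ± 0.65). Of the 60 miRNA rows inside members 49 had no read in any library, and only MIR205 and MIR663A were tested. MIR663A had 65 and 89 reads in MCF10A and 102 and 118 in G12V cells (0.48 ± 0.34).

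The genes around the 4 DE hosts and around SNHG19, SNHG20 and SNHG25 were also read, a description chosen after the values were seen. Within 2 Mb of SNHG16, 79 other genes were tested, of which 65 had a positive log2 fold change, 15 were DE and higher and 2 DE and lower, and their median log2 fold change was 0.60. The window around SNHG20, which shares most of these genes, had a median of 0.65 over 76 genes, and that around SNHG25, elsewhere on the long arm of chromosome 17, a median of 0.51 over 36 genes, 32 of them positive. Over all tested genes the median was -0.0011, with 5.01% DE and higher and 5.95% DE and lower. The 3 hosts on this arm thus lay among genes whose values were mostly positive. The part of these neighbours in the value of SNHG16 was not tested. The genes around SNHG3 had a median of -0.23 over 49 genes and 6 of 7 DE neighbours lower. Around SNHG18 1 of 11 neighbours was DE, and it was higher. Around MIR205HG 8 of 17 neighbours were DE and lower and 1 DE and higher. The 128 neighbours of SNHG19 had a median of -0.03.

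**Figure D4:**
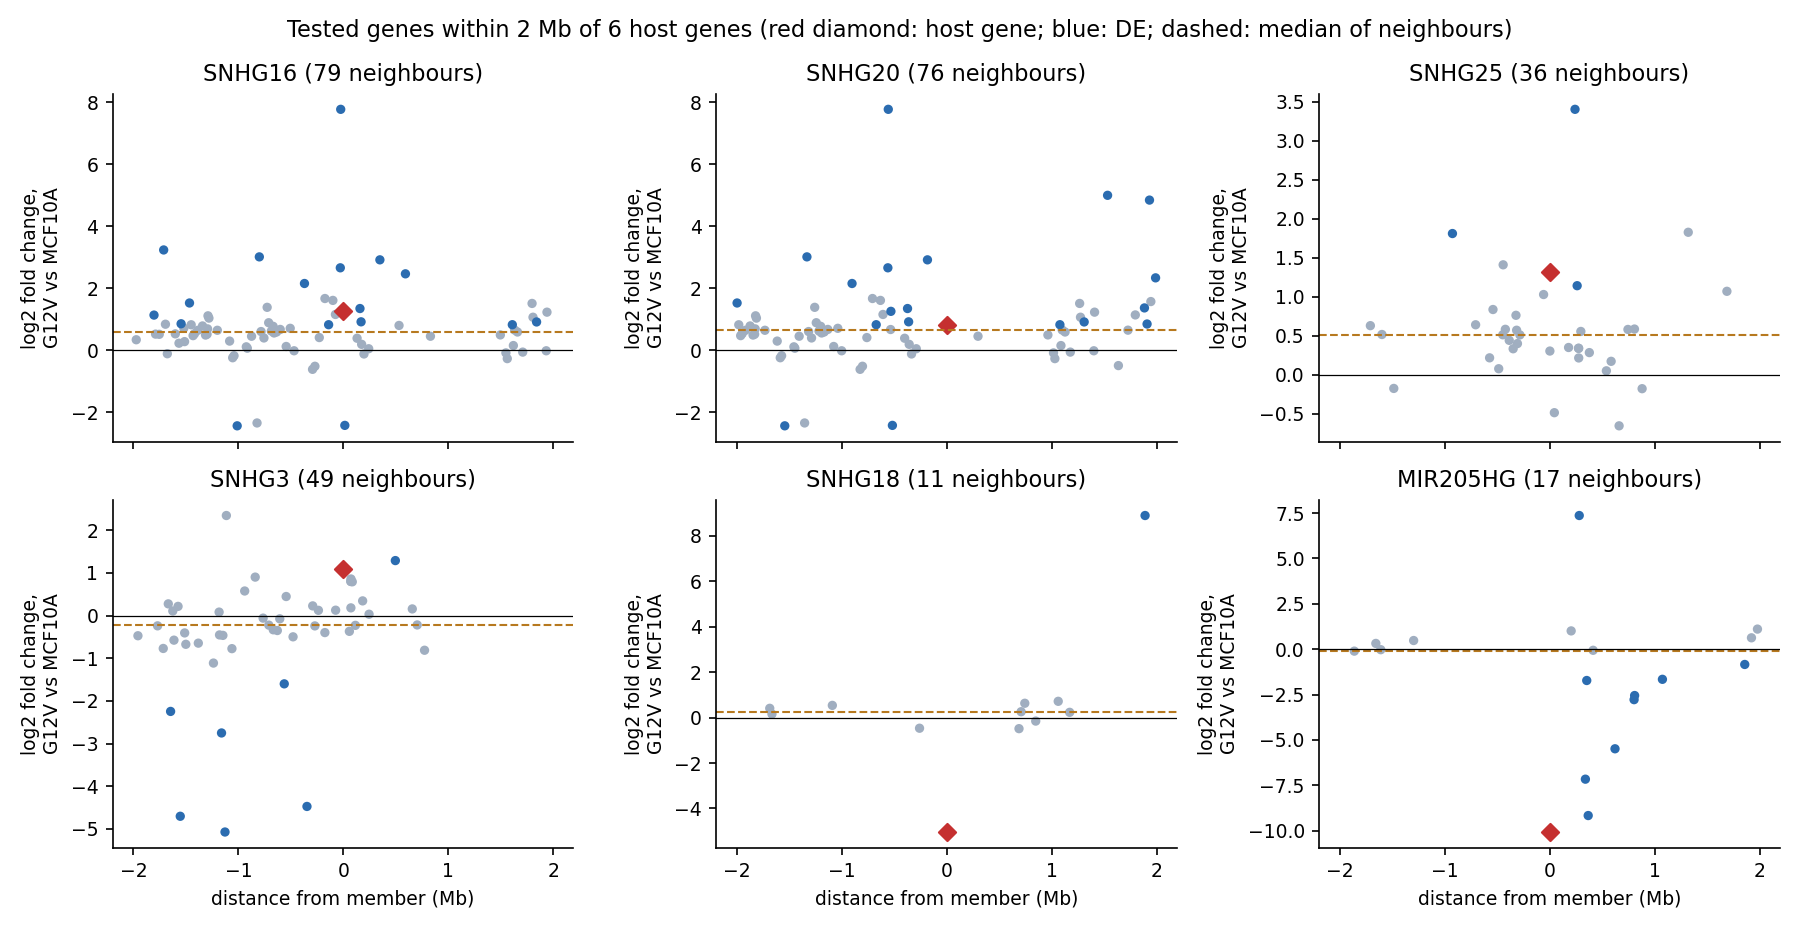
Log2 fold change, G12V against MCF10A, of tested genes within 2 Mb of 6 host genes against the distance from the host gene in Mb, with genes that overlap it left out. The host gene is the red diamond, DE neighbours are blue, other neighbours grey, and the dashed line is the median of the neighbours, 0.60 around SNHG16 and -0.23 around SNHG3, and the vertical scales differ.

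Genes that work with the hosts were read from 6 lists. Beside the counts below, 11.0% of all tested genes were DE and 25.6% had an unadjusted p under 0.05 by edgeR's quasi-likelihood test. Of the other noncoding hosts (ZFAS1, DANCR, EPB41L4A-AS1, DLEU2, H19 and TUG1) only H19, the imprinted host of miR-675, was DE. It had 2.05 and 2.95 CPM in MCF10A and 0.214 and 0.357 CPM in G12V cells, giving a log2 fold change of -3.11 ± 0.49 with an adjusted p of 0.0143 by edgeR's quasi-likelihood test, and all 6 had values below 0 with a median of -0.30. None of 25 tested protein-coding snoRNA hosts was DE by that test, by edgeR's exact test or by DESeq2, and 0 had an unadjusted p under 0.05. The 2 with the highest levels, the elongation factor EEF2 (-0.35 ± 0.40) and TPT1 (-0.68 ± 0.38), missed the threshold, and the list had 17 positive values and a median of 0.14. Of 23 tested protein-coding miRNA hosts 5 were DE, beside 11.0% over all tested genes. The guidance ligand SLIT2, a host of miR-218, rose (1.79 ± 0.22) while SLIT3, the other host of miR-218, fell (-3.35 ± 0.53). SLIT3 was low throughout, at 1.18 and 1.15 CPM in MCF10A and 0.0855 and 0.134 CPM in G12V cells. EGFL7, the host of miR-126, rose (1.95 ± 0.35), and the phosphatase genes CTDSPL (-2.35 ± 0.25) and CTDSP1 (-0.85 ± 0.19), hosts of miR-26 genes, fell, though the call of CTDSP1 was lost without the filter on low counts (adjusted p 0.0545) and with library totals alone (0.0549).

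None of the 12 genes of snoRNP proteins, which package snoRNAs, was DE by any of the same 3 tools, with 0 at an unadjusted p under 0.05, and 11 had values above 0 with a median of 0.17. The 2 with the highest levels were the methyltransferase FBL (-0.22 ± 0.18) and NOP56 (0.19 ± 0.52). None of 10 genes of miRNA processing was DE by edgeR's quasi-likelihood test, with 5 positive and 1 at an unadjusted p under 0.05 (TARBP2, a partner of DICER1 that is named here because the exact test and DESeq2 called it), and the exporter XPO5 (0.45 ± 0.20) and DROSHA (-0.11 ± 0.19) had the highest levels. Of 10 nonsense-mediated decay genes SMG8, a regulator of the kinase SMG1, rose by edgeR's quasi-likelihood test (0.84 ± 0.19, adjusted p 0.0431, lost without the filter on low counts at 0.0577), and the other 9 missed the threshold. The list had 2 positive values and a median of -0.10.

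The comparison of Nutlin-3a with DMSO asks which host genes change within 4 h of the release of p53 from MDM2. Of the 38 members there, 22 were tested, 15 snoRNA hosts and 7 miRNA hosts. No member was DE by edgeR's quasi-likelihood test, adjusted as above, against 0.170% of the 13529 tested genes (0.155% higher and 0.0148% lower). The count was also 0 by edgeR's exact test, by DESeq2 and in a fit that blocked on the replicate number, which called 1.22% of all genes, and 1 member had an unadjusted p under 0.05 (4.55%, against 3.42% of all tested genes). The median log2 fold change of the tested members was 0.08, beside 0.0066 over all tested genes, and their median absolute log2 fold change was 0.14, beside 0.10. Of the 22 members, 15 had a positive and 7 a negative value.

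MIR17HG was that member and the only one whose groups did not overlap, where 8.07% of all tested genes had such groups, 3.70% higher and 4.38% lower. It had 36, 43 and 16 reads in DMSO and 7, 12 and 12 in Nutlin-3a, or 1.99, 2.64 and 0.933 CPM against 0.431, 0.744 and 0.790 CPM. All 3 treated libraries lay below all 3 DMSO libraries, but the nearest pair differed little. The log2 fold change was -1.49 ± 0.44 (95% interval -2.51 to -0.47), with a raw p of 0.0095 and an adjusted p of 0.757 by edgeR's quasi-likelihood test, and the blocked fit gave an adjusted p of 0.0634. The difference thus missed the threshold over all genes in both.

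**Figure D5:**
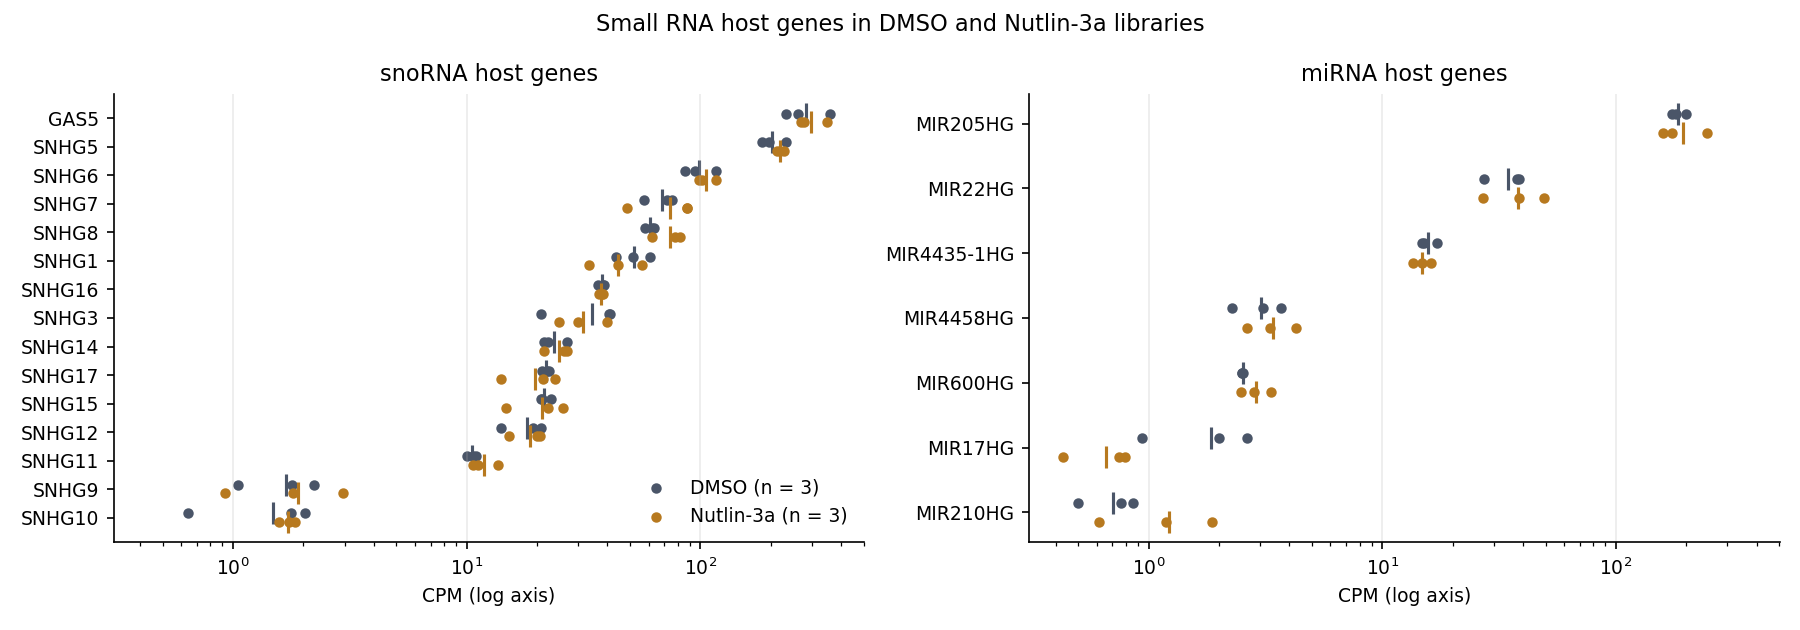
CPM of the 22 tested host genes in each library of the Nutlin-3a experiment (log axis), DMSO in grey and Nutlin-3a in ochre, points for the libraries and vertical ticks for the group means (n = 3 each). Only in MIR17HG do the 3 Nutlin-3a libraries lie clear of the 3 DMSO libraries, at 0.431 to 0.790 against 0.933 to 2.64 CPM.

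GAS5 was read at 359, 261 and 233 CPM in DMSO and at 347, 277 and 269 CPM after Nutlin-3a, a log2 fold change of 0.07 ± 0.18 with a 95% interval of -0.34 to 0.48. The treated libraries lay within the range of the controls. SNHG16, DE between the cell types above, gave 36.3, 38.2 and 38.7 CPM in DMSO and 38.2, 38.0 and 37.0 CPM in Nutlin-3a, with the narrowest interval of all members, -0.23 to 0.22. MIR205HG gave 174, 181 and 200 CPM in DMSO and 160, 174 and 245 CPM in Nutlin-3a (0.06 ± 0.17). SNHG3 gave 40.9, 40.8 and 20.8 CPM in DMSO and 29.8, 39.9 and 24.9 CPM in Nutlin-3a (-0.11 ± 0.27), and in both treatments replicate 3 was the lowest.

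SNHG8, host of SNORA24, had the largest positive value of the snoRNA hosts, with 62.1, 63.3 and 57.8 CPM in DMSO and 61.8, 82.2 and 77.6 CPM after Nutlin-3a (0.27 ± 0.13, unadjusted p 0.0609). Nutlin-3a replicate 1 lay among the DMSO libraries. The other snoRNA hosts were SNHG5 (0.11 ± 0.12), SNHG6 (0.09 ± 0.14), SNHG7 (0.13 ± 0.23), SNHG1 (-0.22 ± 0.20), SNHG12 (0.04 ± 0.19), SNHG15 (-0.04 ± 0.20), SNHG17 (-0.15 ± 0.19), SNHG11 (0.17 ± 0.16), SNHG9 (0.17 ± 0.45), SNHG10 (0.22 ± 0.40) and SNHG14 (0.07 ± 0.14), the last the long host of the Prader-Willi snoRNA clusters, which lies opposite UBE3A. The groups of each of them overlapped. Of the snoRNA rows, that of SNHG14 held only SNORD109B and SNORD115-48, both without a read. UBE3A had 2273 to 3184 reads on the opposite strand, and the strand setting of the counts is not given.

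Among the miRNA hosts MIR210HG had 9, 14 and 13 reads in DMSO and 10, 30 and 18 in Nutlin-3a, and its log2 fold change of 0.79 ± 0.45 had a 95% interval of -0.23 to 1.81. MIR22HG (0.15 ± 0.23), MIR600HG (0.19 ± 0.22), MIR4458HG (0.17 ± 0.28) and MIR4435-1HG (-0.08 ± 0.14), a row that spans the place of MIR4435-2HG in the other table, overlapped between the treatments. All 22 adjusted p-values lay at 0.757 or above by edgeR's quasi-likelihood test. At this precision a 2-fold change lay outside the 95% interval of most members, but not of MIR17HG, MIR210HG, SNHG9 or SNHG10.

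In the same comparison none of the 6 lists held a DE gene by edgeR's quasi-likelihood test, by its exact test or by DESeq2, and 1 of their genes, a protein-coding miRNA host, had an unadjusted p under 0.05. Over all tested genes 0.170% were DE and 3.42% had an unadjusted p under 0.05 by the first of these tests. List medians lay between -0.03 for snoRNP proteins and 0.06 for the other noncoding hosts. The 2 most abundant of each list were ZFAS1 (0.16 ± 0.14) and TUG1 (0.17 ± 0.11), HSPA8 (0.17 ± 0.25) and EEF2 (0.10 ± 0.10), PANK3 (0.07 ± 0.13) and SREBF2 (0.11 ± 0.11), NOP58 (-0.02 ± 0.18) and NOP56 (-0.21 ± 0.23), XPO5 (-0.10 ± 0.12) and DICER1 (-0.02 ± 0.13), and UPF1 (0.11 ± 0.17) and SMG5 (0.00 ± 0.15).

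Too few reads kept the remaining members out of the tests. In the MCF10A and G12V libraries 24 members were not tested, 22 miRNA hosts and 2 snoRNA hosts, and none of them had more than 7 reads in any library. Of these, 12 had no read in all 4 libraries, which allows up to 3 reads or 0.128 to 0.136 CPM in a library: MIR1-1HG, MIR2052HG, MIR217HG, MIR325HG, MIR3663HG, MIR381HG, MIR3976HG, MIR4500HG, MIR670HG, MIR7-3HG, MIR7515HG and SNHG24. The last is a host of the SNORD114 cluster, and the 15 SNORD114 rows inside it had no read either. The muscle hosts MIR133A1HG and MIR143HG and the neural hosts MIR124-2HG and MIR137HG had at most 3 reads in a library, as had MIR155HG, MIR181A1HG and MIR99AHG. MIR497HG had up to 4 reads, MIR181A2HG, MIR202HG and MIR503HG up to 7, and SNHG22 had 6 or 7 in each of the 4 libraries.

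In the Nutlin-3a experiment 16 members were not tested. Of these, 5 had no read in all 6 libraries, MIR202HG, MIR381HG, MIR497HG, MIR670HG and MIR7-3HG, which allows up to 0.166 to 0.197 CPM. MIR143HG and MIR155HG had at most 1 read in a library, as had MIR4500HG, and MIRLET7DHG, MIR181A1HG, MIR137HG and MIR133BHG at most 6. SNHG18, DE between the cell types, had 1 to 7 reads, MIR181A2HG 1 to 10, MIR31HG 1 to 12 and MIR503HG 2 to 24. Of the 24 symbols found only in the first table, several overlap a row under another name in the second. MIR99AHG lies at LINC00478, with 1 to 4 reads, MIRLET7BHG at FLJ27365, with 45 to 99 reads, and SNHG20 at LINC00338, with 34 to 61 reads. MIR100HG lies at RP11-166D19.1, with 229 to 365 reads, SNHG19 at RP11-304L19.5, with 92 to 196, and MIR646HG at RP5-1043L13.1, with 13 to 27. These rows are outside the symbol rule, and their treatment values were not taken as those of the members.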

How the data were processed

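Poly(A) RNA was sequenced from MCF10A and G12V cells and from parental cells given Nutlin-3a or DMSO. The authors aligned reads to hg19 with TopHat and counted them per gene with HTSeq, and the deposited values are raw counts in 2 tables of different annotation. Strand setting, overlap mode and annotation are not given in the sources used here. Each table was fitted whole with edgeR 4.0.16 (R 4.3.3): default filter on low counts, TMM, quasi-likelihood test, Benjamini-Hochberg adjustment over all tested genes. Errors after ± are standard errors. Alternatives were edgeR's exact test, DESeq2 1.42.0, other scalings and filters, a prior count of 2, a replicate block, and leaving out each library. The scripts were tested on simulated data. Deposited starts were read as 1 below the 1-based start. In the second table this held for 41694 of the 52209 rows whose transcript was found in a GENCODE annotation of hg19. The first table, from which the start windows were read, was not checked in this way. In the Nutlin-3a experiment same-numbered libraries deviated together, with correlations of deviations from the group means of 0.603 to 0.639. Other pairs gave -0.474 to -0.191. The numbers were thus taken to pair the libraries, from the data and not from the labels. Errors, intervals and p-values of that comparison still come from a fit without a replicate block, except where the blocked fit is named. The labels speak of biological replicas without naming separate cultures, so p-values measure the spread between these libraries. Intervals of read ratios and limits at 0 reads cover counting error only. All members were named, and of the lists the DE genes or the 2 with the highest mean CPM. Members and lists were chosen with earlier results of these data known.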

Additional observations from a re-analysis of the deposited data

How the results depend on the processing

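The 4 members called in G12V cells kept their direction under every alternative run. They kept the call with edgeR's exact test, DESeq2, RLE, upper-quartile and library-total scaling and a prior count of 2. SNHG3 lost it without the filter on low counts, and SNHG18 was not tested with more than 1 CPM required in 2 libraries. The count of members called was 4 with edgeR's quasi-likelihood test, where 1575 of all genes were called. It was 8 with edgeR's exact test (2536 of all genes) and 7 with DESeq2 (2307 of all genes). It lay between 0 and 9 when a library was left out: 0 without MCF10A replicate 1, when 0 of all genes were called, 2 without MCF10A replicate 2, 9 without G12V replicate 1 and 3 without G12V replicate 2. In these fits the lone library of a group was assumed to vary like the other group. The count of calls over all genes had the same order across these fits as the count of members. The cause of the differences was not tested. The median log2 fold change of the members lay between -0.094 and 0.57.

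With a replicate block in the G12V comparison 12 members and 4158 of all genes were called, where 1575 genes were called without it. The 8 members called with the block but not in the same test without it were SNHG4, SNHG11, SNHG19, SNHG20, SNHG25, MIR4435-2HG, MIR4697HG and MIRLET7BHG, with adjusted p-values from 0.000591 (SNHG19) to 0.0499 (SNHG20). With 2 libraries a group the deviations of a gene mirror each other, so same-numbered pairs gave 0.494 and other pairs -0.494. The check was thus weaker than with 3 libraries a group, and the numbers were not taken to pair the libraries. The calls of these 8 members in the quasi-likelihood test depend on that choice. In the Nutlin-3a comparison 0 members were called in every alternative, while calls over all genes were 23 in the quasi-likelihood test, 84 with the exact test, 88 with DESeq2, 99 without the filter, 165 with the block and 7 to 11 with a library left out. The block changed no call of a member there.

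The log2 fold changes of 15 members in the G12V comparison and 13 in the Nutlin-3a comparison, none of them DE, changed sign when some library was left out. In the former the lowest and highest values were, on the log2 scale, GAS5 -0.86 to 0.46, MIR100HG -0.16 to 1.37, MIR17HG -1.25 to 1.35, MIR22HG -1.33 to 0.36, MIR31HG -0.91 to 0.0095, MIR663AHG -0.20 to 0.53, MIRLET7DHG -1.52 to 0.90, SNHG1 -0.43 to 0.52, SNHG12 -0.57 to 0.67, SNHG15 -0.50 to 0.74, SNHG17 -0.53 to 0.71, SNHG5 -0.47 to 0.14, SNHG7 -0.81 to 0.37, SNHG8 -0.58 to 0.18 and SNHG9 -1.02 to 0.085. In the latter they were GAS5 -0.058 to 0.27, MIR205HG -0.15 to 0.18, MIR22HG -0.076 to 0.35, MIR4458HG -0.026 to 0.34, SNHG10 -0.14 to 0.51, SNHG12 -0.10 to 0.17, SNHG15 -0.22 to 0.16, SNHG16 -0.029 to 0.018, SNHG17 -0.31 to 0.046, SNHG3 -0.37 to 0.036, SNHG6 -0.00041 to 0.23, SNHG7 -0.0094 to 0.36 and SNHG9 -0.30 to 0.50. The direction of these genes was thus not settled with 2 or 3 libraries a group.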

Other observations

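The level of SNHG16 differed between the parental libraries of the tables, 300 and 319 CPM in the untreated MCF10A libraries and 36.3 to 38.7 CPM in the DMSO libraries. GAS5 was at 137 and 327 CPM in the former and 233 to 359 CPM in the latter, and MIR205HG at 231 and 250 CPM and 174 to 200 CPM. The tables were normalised separately and use different annotations, so these values were not compared by a test.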
